A study of Mus musculus with 15 samples.

Results

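The regulatory T cell genes described here are 10 genes, Foxp3, Ikzf2, Ikzf4, Ctla4, Icos, Il10, Nrp1, Tnfrsf18, Tnfrsf4 and Gpr83. They were taken from the arrays by gene name, a rule that uses no measured value, and every probe carrying one of these names was kept. The names themselves were chosen with earlier results of these data known. They are read by 15 probes of the 55681 on the array, and are 10 of 34816 gene names. RNA of CD4 T lymphocytes, sorted by flow cytometry from small-intestinal lamina propria (the connective tissue under the epithelium) of male mice, was amplified and hybridised to one-colour Agilent arrays, 5 per group. The control group ate normal chow, and the other groups ate a high-fat diet (HFD) for 10 or 30 days, a diet given to change the gut microbiota. No strain, age or day of collection of the controls is named in the labels. Whether the 5 samples per group are 5 different mice is not stated, so p-values refer to the spread among samples as deposited, part of which may be technical.

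Regulatory T cells are CD4 T cells that restrain other immune cells, and in the gut they maintain tolerance to food and to resident microbes. Their identity depends on the transcription factor Foxp3, which acts with other factors such as Helios (Ikzf2) and Eos (Ikzf4). They restrain other cells through the receptor CTLA-4 and the cytokine interleukin-10, and they carry the costimulatory receptors ICOS, GITR and OX40, although activated conventional T cells can also carry several of these molecules.

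Each array signal comes from a 60-base probe, so a value describes the stretch of transcript that the probe matches. The last 30 bases of the probes for Foxp3 and Il10 are printed first. These had the largest differences at day 30 against control among the probes that stood for a gene. The probes for Ikzf2 and Ikzf4 follow because probes of the same gene gave different answers, and are told apart by the base of the annotated transcript at which they start. The last 3 lines are the probes that hold AATAAA, the usual polyadenylation signal, given in capitals (the 30-base window is placed to hold it). Positions are of the whole probe in build mm9, as the scanner files give them.
Foxp3, chrX:7172301-7172360, plus strand: tgcctagtagtgagcataaagtccctgtgt
Il10, chr1:132920943-132921002, plus strand: tatttattacctctgatacctcagttccca
Ikzf2 from base 3137, chr1:69584008-69584067, minus strand: acaagcaaaaagttttctttcagccttccc
Ikzf2 from base 9292, chr1:69577853-69577912, minus strand: tttatttcttctcagaagtgtaagtgcagt
Ikzf4 from base 1860, chr10:128071131-128071190, minus strand: caggatcggtatgagttctcttcccacatc
Ikzf4 from base 3387, chr10:128069604-128069663, minus strand: tccattgcaggtggaagtctctctctctaa
Ikzf4 from base 3470, chr10:128069521-128069580, minus strand: aaccaaaggatgttttttctatatttaaag
Icos from base 3194, chr1:61057105-61057164, plus strand: tcctgaacagccAATAAAtatgctttgtga
Tnfrsf18, chr4:155402941-155403000, plus strand: atcttgtacaagAATAAAtacttgtctagt
Tnfrsf4, chr4:155390639-155390698, plus strand: tgcctggtggtgctcctAATAAAcatgcta
AATAAA was found in 3 of the 15 probes of these genes and in 10.1% of all 55681 probes. Its reverse complement, TTTATT, was found in 2 of the 15, those for Il10 and for Ikzf2 from base 9292, and in 3.74% of all probes. No exon or untranslated region is assigned to the probes here, since an annotation of that build was not used.

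The other members had a single probe, except Icos with 3. The probes of Ctla4 (chr1:60971801-60971860) and Icos (the brightest at chr1:61055103-61055162) lie 83.2 kb apart on the plus strand, and those of Tnfrsf4 and Tnfrsf18 lie 12.2 kb apart. The remaining probes are at chr8:131026650-131026709 for Nrp1 and chr9:14673871-14673930 for Gpr83. The brightest probe stands for a gene in the tests.

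The share of spots well above background, a flag set by the scanner software, averaged 63.8% in the controls (SD 11.98, n = 5), 58.5% at day 10 (SD 2.92) and 51.3% at day 30 (SD 5.49). Day 30 lay below day 10 (two-sided exact permutation p = 0.0397, adjusted over 3 comparisons 0.0833) and below the controls (p = 0.0556, adjusted 0.0833, exact permutation test). Control replicate 1 stood apart, with the highest share (82.1%). Arrays with the same scan date in the file headers were taken as the same slide, and no slide name was read. Slide 1 so defined carried the 5 controls with day 10 replicates 1 to 3. Slide 2 carried the 2 other day 10 samples with the 5 of day 30, so slide and diet can be separated only through day 10. All 7 CD4 T cell markers on the array, Cd4, Cd3d, Cd3e, Cd3g, Cd2, Cd5 and Thy1, were well above background on all 15 arrays, with a summed level (log2 of the sum relative to the 75th percentile) of 4.94 to 7.56 in controls, 5.99 to 7.12 at day 10 and 6.30 to 7.48 at day 30. All 7 had a higher mean at day 30 than in controls (median 0.41, 2 with an unadjusted limma p under 0.05) and than at day 10 (median 0.42, 0 with such a p). Against control, 3 were higher and 4 lower without control replicate 1 (median -0.16), and 2 higher and 5 lower in the deposited value table (median -0.02).

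All values are log2 signals relative to the array's own 75th percentile, on which 0 is the percentile and a difference of 1 is a doubling. Of the 10 genes, 7 cleared background on every one of the 15 arrays. Ikzf2 was so on 13, Nrp1 on 8 and Gpr83 on 2. Gpr83 did not reach the 5 arrays needed for testing, so 9 genes were tested among 25997.

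No gene of the array passed an adjusted p of 0.05 in any of the 3 comparisons (limma, Benjamini-Hochberg over 25997 genes), a background of 0% in each. The 9 tested members likewise had 0 calls. Before adjustment, p fell under 0.05 for 673 genes at day 10 against control (2.59%, with 0 of the 9 members). The count was 1337 genes at day 30 against control (5.14%, with 1 member, Foxp3) and 1067 at day 30 against day 10 (4.1%, with 0 members). Values of the groups overlapped for all 9 members in every comparison, where 0.419%, 0.608% and 0.573% of all tested genes had groups that did not overlap.

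**Figure D1:**
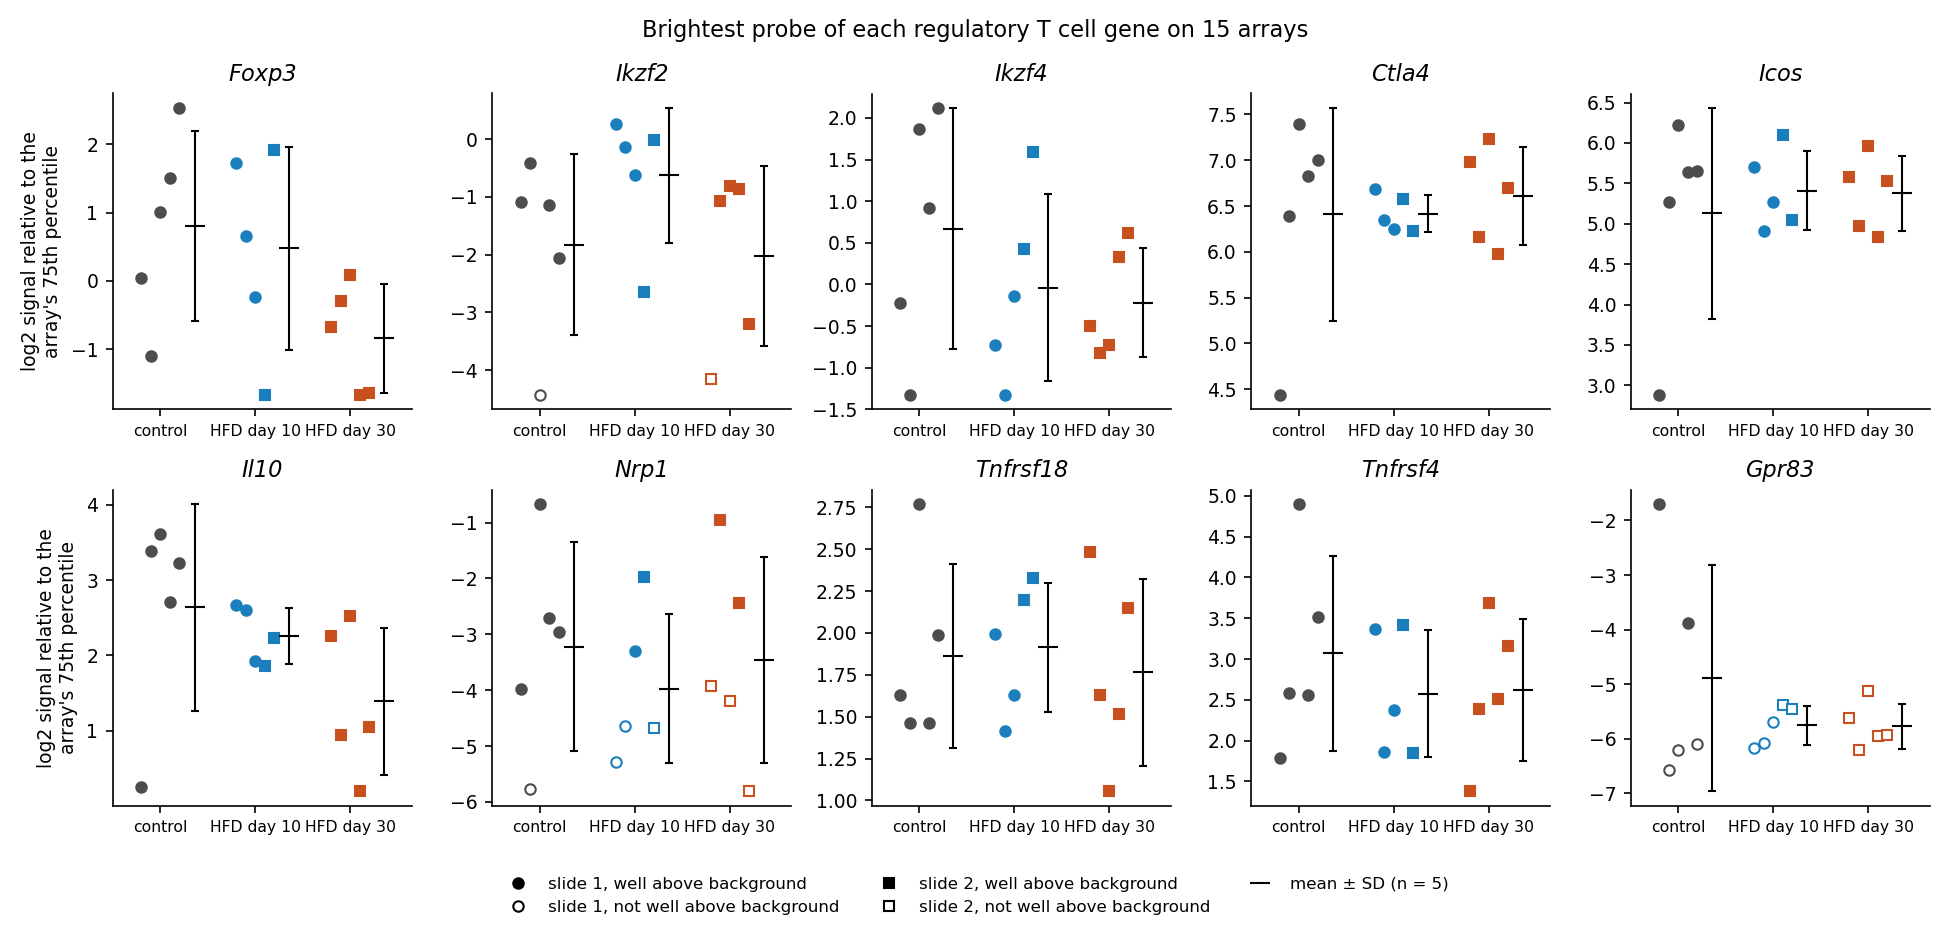
Log2 signal relative to the 75th percentile of the array (vertical axis, a separate scale in each panel) for the brightest probe of each of the 10 genes in control, HFD day 10 and HFD day 30 samples. Circles are slide 1 and squares slide 2, open symbols were not well above background, and bars are the mean ± SD (n = 5). The groups overlap in every panel, and all 5 day 30 samples of Foxp3, Ikzf4 and Il10 lie below the control mean.

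Foxp3, the factor that defines the lineage, had the largest mean difference of the 9 tested genes at day 30 against control. In the 5 controls its log2 values were 0.05, -1.11, 1.01, 1.51 and 2.54. At day 10 they were 1.73, 0.66, -0.24, -1.68 and 1.92, and at day 30 they were -0.68, -0.30, 0.09, -1.68 and -1.65. The groups overlapped: control replicate 2 was lower than 3 of the day 30 samples, and day 10 replicate 4 was as low as the lowest of them. Means were 0.80 ± 1.39 (SD, n = 5), 0.48 ± 1.49 and -0.84 ± 0.80 in the same order. Day 30 averaged 3.13-fold below control, a log2 difference of -1.65 (SE 0.78, 95% interval -3.29 to -0.00), with an unadjusted p of 0.0498 and an adjusted p of 0.927 (limma). The same unadjusted p or a smaller one was reached by 5.12% of all tested genes. Day 10 against control differed by -0.32 (SE 0.78, adjusted p = 1.00, limma), and day 30 against day 10 by -1.32 (SE 0.78, adjusted p = 0.999, limma). In a bulk sample, fewer Foxp3-expressing cells and less Foxp3 RNA per cell cannot be told apart.

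The Foxp3 difference at day 30 was negative under every alternative processing choice run, between -2.16 and -1.05. Its smallest size came with slide as a block, -1.05 (SE 1.40), with an adjusted p of 1.00 (limma). Within slide 1, the controls averaged 0.80 and the 3 day 10 samples 0.71. Within slide 2, the 2 day 10 samples, at -1.68 and 1.92, averaged 0.12, and the 5 day 30 samples -0.84. Leaving out one sample at a time gave -2.12 without control replicate 2 at the one end and -1.21 without control replicate 5 at the other, and the latter had an unadjusted p of 0.144 (limma). Over the 27 alternatives, the unadjusted p at day 30 against control was under 0.05 in 14 (limma). Fitted among all tested probes instead of genes, the same Foxp3 probe had an unadjusted p of 0.0512 (limma).

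Helios, encoded by Ikzf2, is a relative of Ikaros found in many regulatory T cells. Its brightest probe, from base 3137, gave -1.09, -0.41, -4.43, -1.15 and -2.06 in the controls. At day 10 it gave 0.26, -0.13, -0.62, -2.65 and -0.02, and at day 30 -4.15, -1.08, -0.81, -0.86 and -3.21. Of the 5 day 10 samples, 4 were above the control mean and 4 above every day 30 sample, while the lowest control and the lowest day 30 sample were not well above background. The differences were 1.20 at day 10 against control (SE 0.89), -0.20 at day 30 against control (SE 0.89) and -1.39 at day 30 against day 10 (SE 0.89), with adjusted p between 0.994 and 1.00 (limma). Without control replicate 3, its lowest control, the day 10 difference from control was 0.54, and in the deposited value table it was 0.20. The Ikzf2 probe from base 9292 was well above background on only 7 arrays. It read 0.56, -6.07, 2.42, -0.92 and -5.73 at day 30, where the controls lay between -6.48 and -0.82, a difference of 2.72 (SE 1.64, adjusted p = 0.945, limma) in the opposite direction to the other probe.

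Eos, encoded by Ikzf4, is a partner of Foxp3 in gene repression. Its brightest probe, from base 3387, gave -0.22, -1.33, 1.87, 0.92 and 2.12 in the controls, -0.73, -1.33, -0.14, 0.42 and 1.59 at day 10, and -0.50, -0.82, -0.73, 0.33 and 0.62 at day 30. All 5 day 30 samples were below the control mean, yet inside the control range. Day 30 differed from control by -0.89 (SE 0.71, adjusted p = 0.944), day 10 from control by -0.71 (SE 0.71) and day 30 from day 10 by -0.18 (SE 0.71), by limma. The probe from base 3470 had the same sign at day 30 (-1.32, SE 1.10) and the probe from base 1860 the opposite one (2.30, SE 1.59), and each was well above background on 8 arrays. With the mean of all its probes, Ikzf4 at day 30 differed from control by 0.03.

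**Figure D2:**
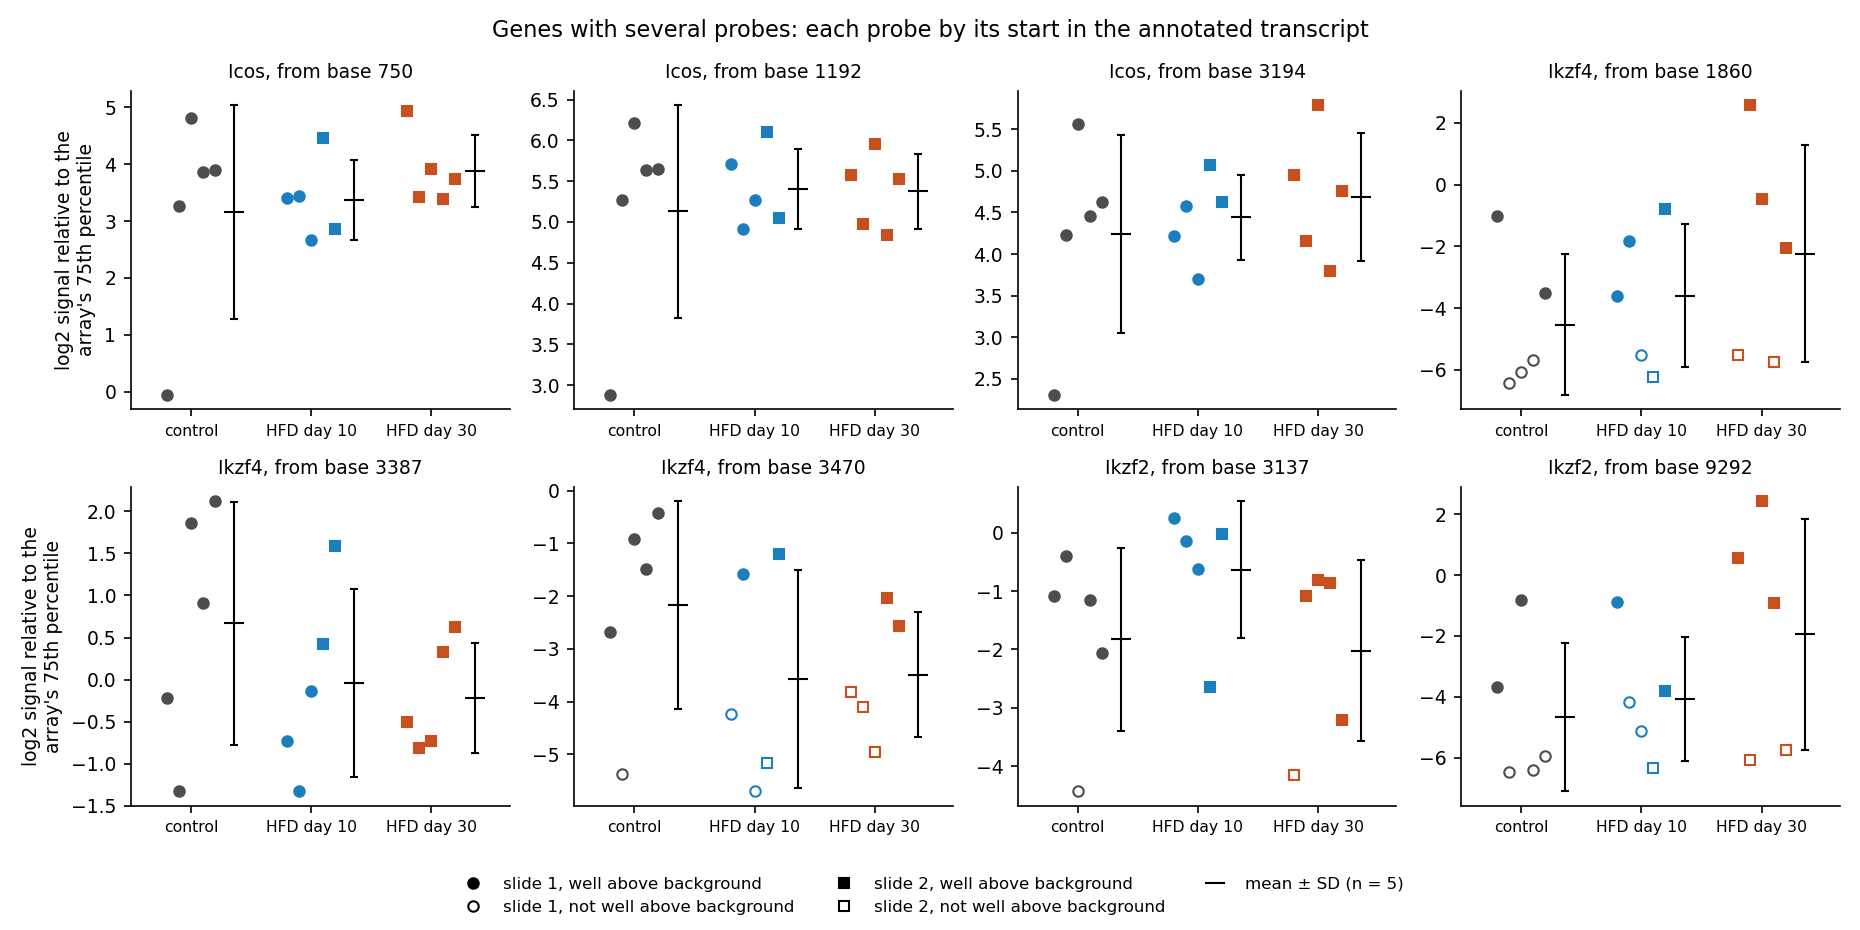
Log2 signal relative to the 75th percentile of the array (vertical axis, separate scales) for each probe of Icos, Ikzf4 and Ikzf2 in the 3 groups, with symbols and bars as in the plot of the members. The 3 Icos probes share their low control sample, whereas the Ikzf2 probe from base 9292 and the Ikzf4 probe from base 1860 spread over more than 7 log2 units within a group, down to values not well above background.

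Interleukin-10, a cytokine by which regulatory and other T cells damp inflammation, was read by one probe printed in 10 spots. Its values were 0.26, 3.39, 3.61, 2.70 and 3.23 in the controls. They were 2.68, 2.60, 1.92, 1.86 and 2.23 at day 10, and 2.26, 0.94, 2.53, 0.19 and 1.04 at day 30. Control replicate 1 was far below the other 4 controls, which were all above every day 10 and day 30 sample. Means were 2.64 ± 1.37 (SD, n = 5), 2.26 ± 0.37 and 1.39 ± 0.97. Day 30 averaged 2.37-fold below control, a log2 difference of -1.25 (SE 0.61, 95% interval -2.54 to 0.05), with an unadjusted p of 0.0577 and an adjusted p of 0.927 (limma). Day 10 differed from control by -0.38 (SE 0.61) and day 30 from day 10 by -0.87 (SE 0.61), with adjusted p of 1.00 and 0.999 (limma). The day 10 difference was -0.97 without control replicate 1 (SE 0.46), -0.19 without control replicate 2 and -0.14 without control replicate 3.

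The Il10 value rested on control replicate 1 more than on any other sample. Without it, day 30 differed from control by -1.84 (SE 0.46), with an unadjusted p of 0.00128 and an adjusted p of 0.953 (limma). Without day 30 replicate 4 the difference was -0.95 (SE 0.62). With the share of spots well above background as a covariate it was -2.52 (SE 0.51), with an adjusted p of 0.451 (limma), the smallest adjusted p among 738 alternative values for the members. That covariate also moved Ctla4 from 0.20 to -0.90, Icos from 0.25 to -0.96 and Tnfrsf4 from -0.45 to -1.46. Ikzf2 moved the other way, from -0.20 to 1.10. With slide as a block the Il10 difference was -0.90 (SE 1.10). The authors' deposited value table gave -1.49 (SE 0.33) over 13 arrays, since it holds no value for Il10 in control replicate 1 and day 10 replicate 3, with an adjusted p of 0.532 (limma).

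**Figure D3:**
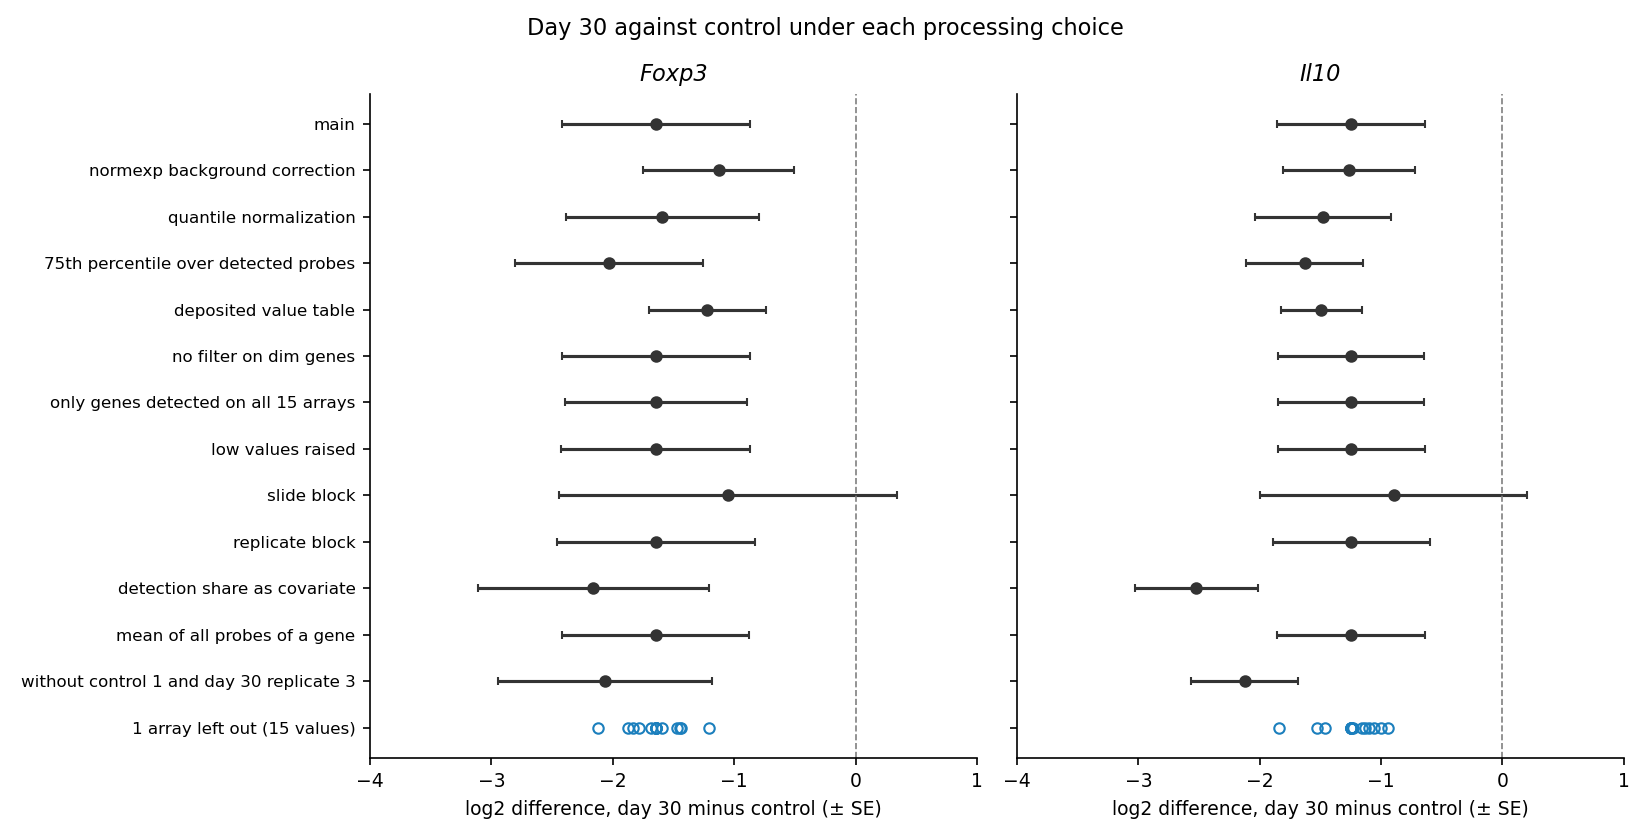
Log2 difference of day 30 minus control (horizontal axis) for Foxp3 and Il10 under each processing choice, with filled points ± SE and open points for fits that leave out one of the 15 samples. All points lie below 0, from -2.16 to -1.05 for Foxp3 and from -2.52 to -0.90 for Il10, and the widest errors belong to the fit with slide as a block.

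CTLA-4, which withdraws costimulation by competing for CD80 and CD86, was well above background in every sample. Ctla4 read 4.43, 6.39, 7.40, 6.83 and 7.001 in the controls, 6.68, 6.35, 6.25, 6.58 and 6.23 at day 10, and 6.98, 6.16, 7.23, 5.98 and 6.70 at day 30. Apart from control replicate 1, the lowest value, all samples lay between 5.98 and 7.40. Differences from control were 0.01 at day 10 (SE 0.43, 95% interval -0.91 to 0.92) and 0.20 at day 30 (SE 0.43, 95% interval -0.72 to 1.12). Day 30 differed from day 10 by 0.19 (SE 0.43), and adjusted p was between 0.988 and 1.00 (limma).

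ICOS, a costimulatory receptor of the CD28 family, also had its lowest value in control replicate 1. The brightest Icos probe read 2.88, 5.26, 6.22, 5.64 and 5.65 in the controls, 5.71, 4.91, 5.27, 6.10 and 5.05 at day 10, and 5.58, 4.98, 5.96, 4.83 and 5.53 at day 30. The high-fat diet samples all lay within the range of the controls. The differences were 0.28 at day 10 and 0.25 at day 30 against control (SE 0.49 each) and -0.03 at day 30 against day 10 (SE 0.49). The probes from bases 750 and 3194 gave 0.72 (SE 0.70) and 0.45 (SE 0.52) at day 30 against control. Without control replicate 1 the signs turned for both genes: Ctla4 then differed from control by -0.49 at day 10 and -0.29 at day 30, and Icos by -0.29 and -0.32.

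Across the 15 samples, Ctla4 and Icos varied together. Pearson's r was 0.95 and Spearman's rho 0.86, with permutation p of 1e-05 (the smallest that 100000 permutations can give) and 0.00012, and 2e-05 and 0.00024 after adjustment over the 2 neighbouring pairs examined. Control replicates 1 and 3 were farthest from the median of Ctla4, and without them r was 0.81. Within slide 1 (8 samples) r was 0.98, and within slide 2 (7 samples) it was 0.81. The permutations treated the 15 samples as exchangeable, although samples share group and slide. With the share of spots well above background as a covariate, SEs at day 10 against control fell for both genes. That of Ctla4 went from 0.43 to 0.21 and that of Icos from 0.49 to 0.27. How many other pairs of genes vary together as closely was not examined, and the source of the shared variation was not tested. For Tnfrsf4 and Tnfrsf18 r was 0.24 and rho 0.04 (permutation p = 0.39 and 0.90, adjusted 0.39 and 0.90), and without control replicate 3 and day 30 replicate 1 r was 0.09. Their r was 0.93 within slide 1 and -0.57 within slide 2, so no single relation held over both slides.

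**Figure D4:**
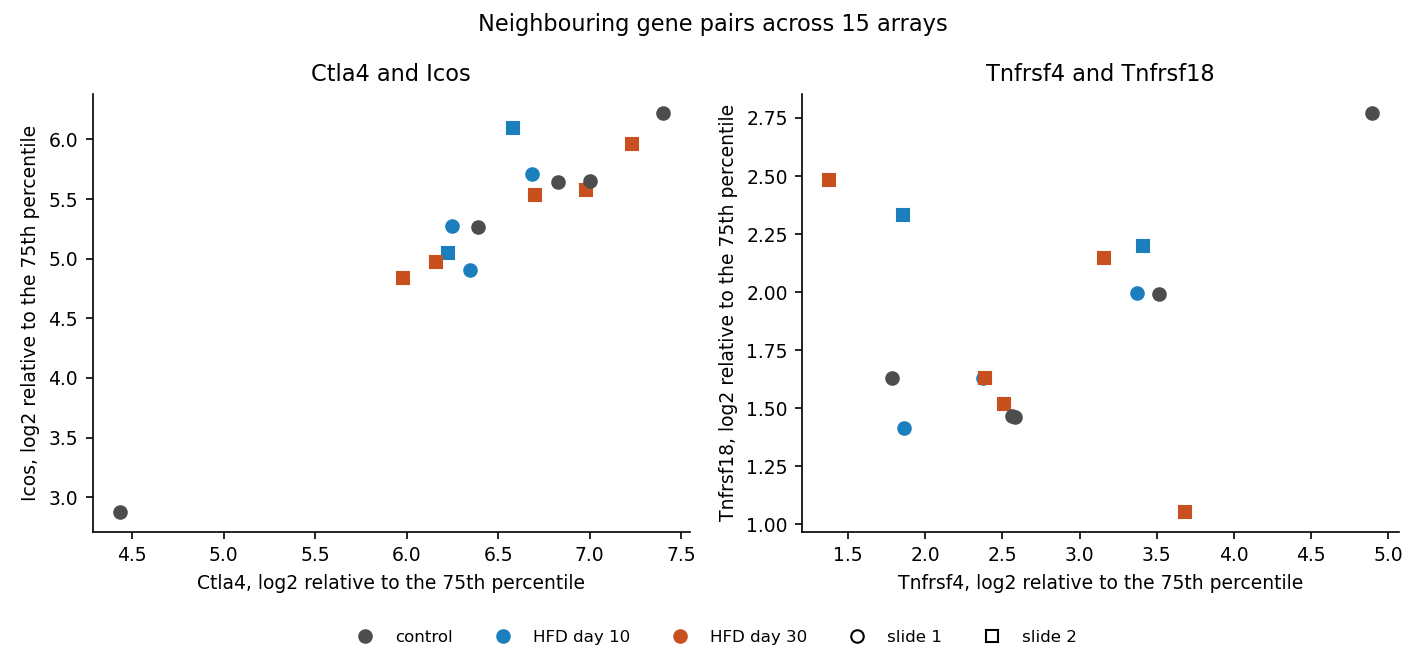
Log2 signal relative to the 75th percentile of the array for Icos against Ctla4 (left) and Tnfrsf18 against Tnfrsf4 (right) in each of 15 samples, coloured by group, with circles for slide 1 and squares for slide 2. Ctla4 and Icos lie along one line (r = 0.95, with control replicate 1 at the lower end), and Tnfrsf4 and Tnfrsf18 do not (r = 0.24).

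GITR (Tnfrsf18) and OX40 (Tnfrsf4) are receptors of the tumour necrosis factor family that costimulate T cells. Tnfrsf18 read 1.63, 1.46, 2.77, 1.46 and 1.99 in the controls, 2.00, 1.41, 1.63, 2.20 and 2.33 at day 10, and 2.48, 1.63, 1.05, 1.52 and 2.15 at day 30. No sample was far from the rest, and the differences were 0.05 and -0.10 against control at day 10 and day 30 and -0.15 between them (SE 0.39 each). The 95% interval at day 30 against control, -0.93 to 0.74, was the narrowest of the members in that comparison. Tnfrsf4 read 1.78, 2.58, 4.90, 2.56 and 3.52 in the controls, 3.37, 1.86, 2.38, 3.41 and 1.85 at day 10, and 1.38, 2.39, 3.69, 2.51 and 3.16 at day 30. Control replicate 3 had the highest value for both genes. Tnfrsf4 differed from control by -0.49 at day 10 and -0.45 at day 30 (SE 0.58 each) and by 0.05 between the diet times. Without control replicate 3 the day 30 difference from control was 0.13 for Tnfrsf18 and 0.012 for Tnfrsf4, and the day 10 difference for Tnfrsf4 was -0.036. Without control replicate 1, the lowest control, Tnfrsf4 at day 10 differed by -0.81.

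Neuropilin-1 (Nrp1), a semaphorin receptor carried by many thymus-derived regulatory T cells, was dim. It was well above background in 4 controls, 2 day 10 samples and 2 day 30 samples. Its values were -3.99, -5.77, -0.67, -2.71 and -2.97 in the controls, -5.28, -4.65, -3.29, -1.97 and -4.67 at day 10, and -3.92, -0.95, -4.19, -2.44 and -5.81 at day 30. Each group spanned more than 3 log2 units, and the differences of -0.75, -0.24 and 0.51 had an SE of 1.05. Gpr83, a G protein-coupled receptor known as a regulatory T cell transcript, was well above background only in control replicates 1 and 4, at -1.70 and -3.87. Its other 13 values lay between -6.57 and -5.13, which are not well above background, and no fold was formed.

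**Figure D5:**
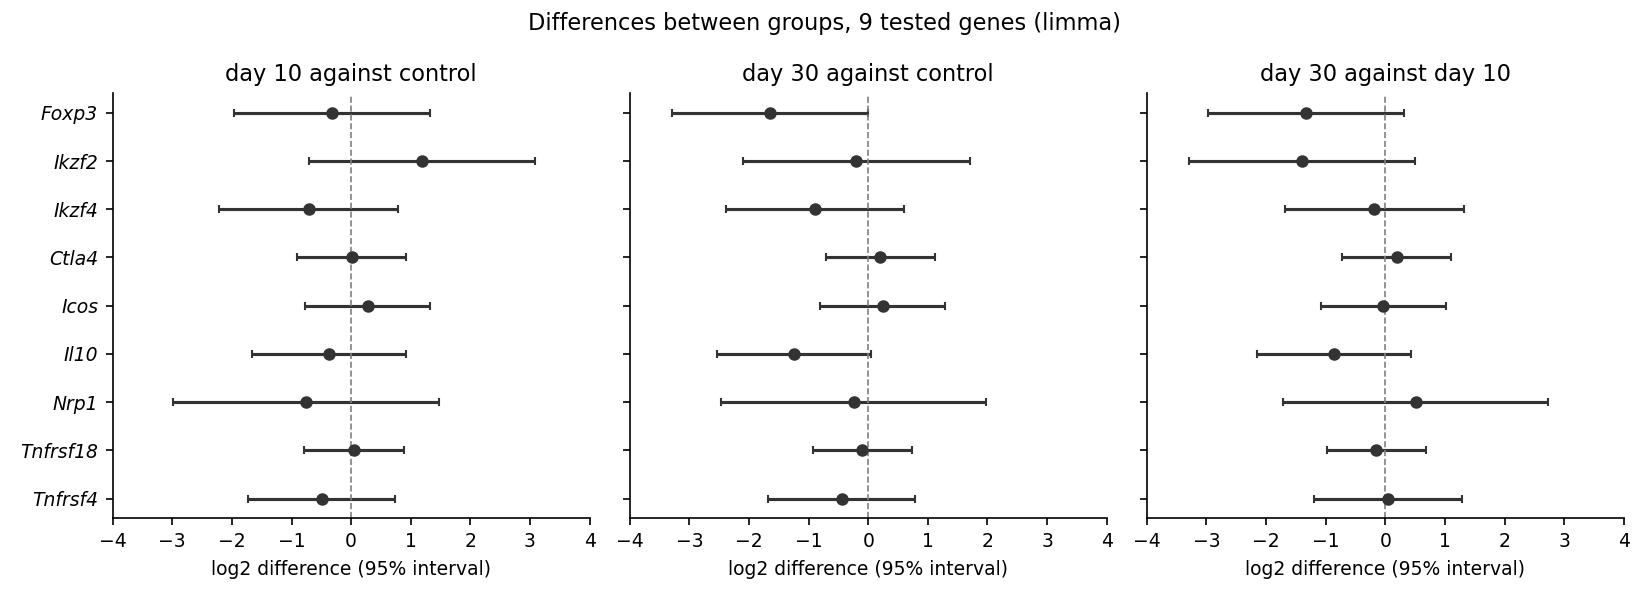
Log2 difference between groups (horizontal axis) with its 95% interval for the 9 tested genes, in panels for day 10 against control, day 30 against control and day 30 against day 10. Every interval includes 0 except that of Foxp3 at day 30 against control, which ends at -0.00.

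Counted over the 9 tested genes, 4 had a higher and 5 a lower mean at day 10 than in controls. At day 30, 2 were higher than in controls, Ctla4 and Icos, and 7 were lower. Against day 10, day 30 was higher for 3 and lower for 6. Among all tested genes the lower share was 50.1%, 49.7% and 46.9%. The median difference of the 9 was -0.32, -0.24 and -0.15, beside 0.00, 0.00 and 0.06 over all tested genes. These counts moved with single samples: at day 30 against control all 9 were lower without control replicate 1, and 4 were lower and 5 higher without control replicate 3, with medians of -0.43 and 0.01. The day 30 samples all lay below the control mean for 3 of the 9 (Foxp3, Ikzf4 and Il10; 6.96% of all genes) and below the day 10 mean for 2 (Foxp3 and Ikzf2; 5.96%). The day 10 samples all lay below the control mean for 0 of the 9 (6.47%). The comparisons with control share the same 5 control samples.

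The genes whose values most resembled those of Foxp3 over the 15 samples, among 9660 named genes well above background on at least 12 arrays, were Bcat1 (r = 0.74), Rnf115 (0.72), Atxn7l3 (0.71), Eid3 (0.71) and Gm11696 (0.71). Il10 was 80th (r = 0.53), Ikzf4 292nd (0.42), Ikzf2 1332nd (0.24) and Ctla4 1767th (0.20). Without the 2 samples farthest from the Foxp3 median, control replicate 5 and day 10 replicate 5, r was 0.50 with Il10 and 0.25 with Ikzf2, but 0.04 with Ikzf4, so the value for Ikzf4 rests on those samples. With the same samples left out, r was 0.76 for Bcat1, 0.61 for Rnf115, 0.54 for Atxn7l3, 0.58 for Eid3 and 0.58 for Gm11696. For Il10 the closest were Tmem30a (r = 0.83), Ufd1 (0.82), Acot9 (0.81), Phyh (0.79) and Tfrc (0.78), with Ctla4 26th (0.70) and r with Icos of 0.64. Without the 2 samples farthest from the Il10 median, control replicate 1 and day 30 replicate 4, r with Ctla4 was 0.50 and with Icos 0.34. It was then 0.62 for Tmem30a, 0.75 for Ufd1, 0.60 for Acot9, 0.70 for Phyh and 0.58 for Tfrc. Samples share slide and depth, and these values are descriptions over 15 points. The closest genes were picked as the highest of 9660, and how high r would rise in such a pick by chance was not examined.

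Other genes of the pathway were examined as 4 lists, each with 0 calls in every comparison. Foxp3 depends on interleukin-2 signalling and on transcription factors that bind its locus or its protein, and of 20 genes of that kind 19 were tested. Of these, 9 were higher and 10 lower at day 10 than in controls, and 13 were higher and 6 lower at day 30 (medians -0.08 and 0.42). Day 30 was higher than day 10 for 14 and lower for 5 (median 0.34), whereas it was higher for 6 and lower for 13 with the share of spots well above background as a covariate (-0.31), and 8 and 8 in the deposited table. Unadjusted p under 0.05 was reached by 1, 3 and 2 of them (2.59%, 5.14% and 4.1% over all genes). Both medians against control took either sign over the alternatives, that at day 30 down to -0.49 with the detection share as a covariate.

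Runx1, which binds Foxp3 regulatory DNA, averaged -0.05 ± 1.13 (SD, n = 5) in controls and -4.51 ± 2.73 at day 10, a difference of -4.46 (SE 1.44, adjusted p = 1.00, limma), on a probe well above background on 8 arrays. Aiolos (Ikzf3), a further Ikaros relative, averaged 2.52 ± 0.55 (SD, n = 5) in controls, 2.22 ± 0.79 at day 10 and -0.10 ± 1.76 at day 30. Its differences at day 30 were -2.62 against control (SE 0.70, adjusted p = 0.887) and -2.32 against day 10 (SE 0.70, adjusted p = 0.999), by limma. Ikaros itself (Ikzf1) averaged 1.57 ± 0.87 at day 10 and 3.15 ± 0.67 at day 30, a difference of 1.58 (SE 0.59, adjusted p = 0.999, limma). Il2rg, the shared cytokine receptor chain, was 1.00 higher at day 30 than in controls (SE 0.47, adjusted p = 0.927, limma).

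Of 13 genes for suppressive effector molecules 12 were tested. Of these, 3 were higher and 9 lower than in controls at both diet times, with medians of -0.20 and -0.85. Day 30 was higher than day 10 for 7 and lower for 5 (median 0.31), and higher for 3 and lower for 9 with the same covariate (-0.37). The day 30 median was 0.21 when only genes well above background on all 15 arrays were kept, and negative under the other alternatives. Pdcd1, which encodes the inhibitory receptor PD-1, averaged 1.48 ± 0.86 (SD, n = 5) in controls, 3.12 ± 0.81 at day 10 and -1.01 ± 2.58 at day 30. It differed by -2.49 at day 30 against control (SE 0.95, adjusted p = 0.927) and by -4.13 against day 10 (SE 0.95, unadjusted p = 0.000492, adjusted p = 0.678), by limma. Areg, the tissue-repair factor amphiregulin, averaged 2.05 ± 0.98 in controls and -1.27 ± 3.88 at day 30, a difference of -3.32 (SE 1.45, adjusted p = 0.927, limma).

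Of 18 names listed for gut and effector regulatory T cells, 17 were on the array and all were tested (Izumo1r and Folr4 name the same gene). Of these, 5 were higher and 12 lower at day 10 than in controls, and 9 higher and 8 lower at day 30 (medians -0.32 and 0.15). The day 10 median was negative under every alternative run, while the day 30 median took either sign. Day 30 was higher than day 10 for 13 and lower for 4 (median 0.36), but higher for 5 and lower for 9 in the deposited table (-0.16), and for 6 and 11 with the detection covariate (-0.23). Gpr15, a receptor that guides T cells to the large intestine, differed from control by -2.82 at day 10 (SE 0.97) and by -2.21 at day 30 (SE 0.97), on a probe well above background on 7 arrays. Ccr8, a chemokine receptor of effector regulatory T cells, differed by -3.60 at day 10 (SE 1.36). The adjusted p of these 3 differences lay between 0.927 and 1.00 (limma).

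Of 11 ligands and receptors linked to the members, 8 were tested. Not all of them bind a member's product, since Il2 and Cd28 are included. Of the 8, 5 were higher and 3 lower at day 10 and 6 higher and 2 lower at day 30 than in controls (medians 0.21 and 0.28). Both medians took either sign over the alternatives, and day 30 was higher than day 10 for 4 and lower for 4 (median 0.06, and -0.42 in the deposited table). Il10ra, the ligand-binding chain of the interleukin-10 receptor, averaged -4.48 ± 2.85 (SD, n = 5) at day 10 and 0.10 ± 2.04 at day 30, a difference of 4.59 (SE 1.49, adjusted p = 0.999, limma). Its probe was well above background on 9 arrays.

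Genes of other cell types were also measured in the sorted cells. Of 9 macrophage and dendritic cell markers, 4 (Csf1r, Apoe, H2-Ab1 and Cd74) were well above background on all 15 arrays, and 6 of the 8 tested were higher at day 30 than in controls (median 0.85, and -0.09 in the deposited table, with 3 higher and 4 lower). Against day 10, 7 were higher and 1 lower at day 30 (median 1.00, 3 with an unadjusted limma p under 0.05), and this median was positive under every alternative run. Their summed level ranged from 3.16 to 4.88 in controls, 3.70 to 4.69 at day 10 and 4.27 to 5.94 at day 30. Of 8 markers of CD8 T, NK and cytotoxic cells, Gzma, Gzmb, Prf1 and Nkg7 were on all 15 arrays. Cd8a was on 12, Ncr1 on 10, Klrb1c on 9 and Cd8b1 on 2. The sums of the 8 were 5.48 to 7.87 in controls, 6.59 to 7.42 at day 10 and 6.36 to 7.22 at day 30. Of the 7 tested, 3 were higher and 4 lower at day 30 than in controls (median -0.21), and 1 was higher and 6 lower than at day 10 (median -0.41). Both medians were negative under every alternative run.

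Of 7 B and plasma cell markers, 3 (Pax5, Jchain and Cd22) were on all 15 arrays and Ms4a1 was on 0, with summed levels of 5.17 to 5.67, 4.98 to 5.93 and 5.23 to 6.11. Of 8 epithelial markers, 2 (Krt18 and Pigr) were on all 15 arrays, with sums of 7.86 to 8.33, 7.79 to 8.45 and 7.94 to 9.14. Of 6 innate lymphoid cell markers, Il7r and Rora, which T cells also express, were on all 15 arrays and Kcnk1 on 0, with sums of 3.46 to 6.24, 5.35 to 5.85 and 5.43 to 6.25. The part of these cells, of the share of spots well above background and of the slide in the differences of Foxp3 and Il10 was not tested beyond the fits given above.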

How the data were processed

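Total RNA of sorted cells was amplified with a proprietary kit (SuperAmp) and labelled with Cy3, per the labels' protocols. Amplification from few cells may widen the spread of dim genes. The deposited scanner files hold spot intensity from the scanner software (Agilent Feature Extraction 10.7.3.1), background-subtracted within each array and not normalized between arrays, per the file headers. Each array has 62976 spots, of which 59305 are not controls. The authors' deposited value table holds log2 values whose column medians are all about 5.51; how it was filtered and scaled is not given in the sources used here, and it was used as an alternative.

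From the intensities, log2 of the processed signal minus the array's 75th percentile was computed, spots of a probe were averaged (46 values missing), and a gene took its brightest probe. Genes well above background on at least 5 of 15 arrays were tested (25997; 8819 were left out) with limma 3.58.1 in R 4.3.3 (group means, trended eBayes over all 15 arrays, two-sided, Benjamini-Hochberg); the script was tested on simulated data. No spot was saturated. Precision is limited by the number of arrays. Permutation tests used scipy 1.17.1 under Python 3.11.15. The 10 members and every list were chosen with earlier results of these data known. Named were all members and probes, list genes with unadjusted p under 0.05 (at most 5 a comparison), and the 5 genes most like Foxp3 and Il10. Alternatives were other background corrections, scalings, filters, blocks, a detection covariate, probe means, and samples left out. Sequences and positions came from the scanner files.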

Additional observations from a re-analysis of the deposited data

Results flagged for a closer look

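Of 30 groups of 5 samples examined over the 10 genes, 2 held a sample far from the others, which is near the 1 in 20 or so that chance gives. It was the same sample in both, so the 2 are not separate findings. Control replicate 1 had an Il10 value of 0.26, and its gap to the next control was 0.73 of the group's range. The same sample had an Icos value of 2.88, with a gap of 0.714 of the range. The critical value for 5 samples is 0.71. That sample also had the highest share of spots well above background, 82.1%.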

How the results depend on the processing

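Over 738 alternative values for the 27 member differences, 0 changed a call and the smallest adjusted p was 0.451 (limma). The sign turned in 86 values, 33 of them with one sample left out, and 9 of the 27 differences never turned. Some scalings moved the median of all genes. The 75th percentile over detected probes, which moves all genes of an array alike, put it at -0.38 at day 30 against control and -0.24 at day 30 against day 10. The deposited table put it at -0.10, -0.25 and -0.15 in the 3 comparisons. Signs under both are to be read beside that shift. In the deposited table the shift differed between genes: at day 30 against control Foxp3 went from -1.65 to -1.22, and Ctla4 from 0.20 to -0.41.

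For day 10 against control, Ctla4 became -0.083 with the percentile over detected probes, -0.21 in the deposited table, -0.46 with the detection covariate, -0.067 with normexp, -0.13 with quantile normalization and -0.49 without control replicate 1 and day 30 replicate 3 together. Tnfrsf18 became -0.040, -0.14, -0.090, -0.030 (quantile), -0.18 with slide as a block, -0.18 within slide 1 and -0.0079 without that pair of samples. Icos became -0.24 with the covariate and -0.29 without the pair.

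For day 30 against control, Ctla4 became -0.18 (detected probes), -0.41 (deposited), -0.90 (covariate), -0.21 (quantile) and -0.45 (without the pair), and Icos -0.14, -0.32, -0.96, -0.15, -0.46 and, with the slide block, -0.032. Ikzf2 became 1.10 (covariate), 1.26 (mean of probes), 0.11 (quantile) and 0.97 (slide block), and Ikzf4 0.030 (mean of probes). Nrp1 became 0.42 with low values raised, 0.19 with normexp and 0.14 with quantile normalization, and Tnfrsf18 0.023 without the pair.

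For day 30 against day 10, Ctla4 became -0.10 (detected probes), -0.20 (deposited), -0.43 (covariate) and -0.080 (quantile). Tnfrsf4 became -0.25, -0.35, -0.53, -0.026 (normexp), -0.20 (quantile), -0.0094 (slide block), -0.0094 (within slide 2) and -0.22 (without the pair). With the mean of probes, Ikzf2 became 0.36, Ikzf4 0.42 and Icos 0.24. Nrp1 became -0.14 with the slide block and within slide 2, and Tnfrsf18 0.031 without the pair. The cause was not tested.

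With one sample left out, day 10 against control ranged from -0.49 to 0.25 for Ctla4, -0.054 to 0.28 for Tnfrsf18, -0.29 to 0.55 for Icos and -0.80 to 0.21 for Foxp3. Day 30 against control ranged from -0.29 to 0.45 for Ctla4, -0.32 to 0.52 for Icos, -0.85 to 0.34 for Ikzf2, -0.88 to 0.39 for Nrp1, -0.28 to 0.13 for Tnfrsf18 and -0.77 to 0.012 for Tnfrsf4. Day 30 against day 10 ranged from -0.18 to 0.14 for Icos, -0.22 to 0.36 for Tnfrsf4, -0.50 to 0.22 for Ikzf4, -0.12 to 1.10 for Nrp1 and -0.33 to 0.031 for Tnfrsf18.

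The count of genes called was 0 in each comparison, and 1 at day 30 against control with slide as a block (Vkorc1l1). With one sample left out it ranged from 0 to 1 at day 10 against control, and from 0 to 2 in both other comparisons. Same-numbered samples did not deviate together over all genes: after each gene's group mean was subtracted, their deviations correlated between -0.13 and 0.15. Whether the numbers mark a pairing cannot be settled this way, since single genes may still share deviations. With the replicate number as a block, 0 genes were called in each comparison (721, 1373 and 1127 with unadjusted p under 0.05).

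The median of the 9 genes, or of those among them that a setting kept, was negative in all settings except without control replicate 5 at day 10 (0.08), without control replicate 3 at day 30 against control (0.01) and with the mean of probes at day 30 against day 10 (0.19). The deposited table and the percentile over detected probes also put the median of all genes below 0, so the sign there is to be read beside that shift. These medians, and those of the other lists, were chosen after seeing the data.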
